A study of Mus musculus with 12 samples.

Results

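The 76 mouse genes for proteins of the mitochondrial ribosome were followed across 4 groups of pluripotent stem cells. They were chosen by name: every probe whose gene symbol starts with Mrpl or Mrps and a digit was taken, and each gene was represented by its brightest probe among those well above background on all 12 arrays. This gave 76 of the 22370 named genes on the array, 47 of the large subunit (Mrpl) and 29 of the small subunit (Mrps). All 76 had such a probe, and 0 of their 912 values were missing. The cells were mouse embryonic stem cells (mESC) labelled Tbx3-high (4 arrays) or Tbx3-low (4 arrays), and mouse induced pluripotent stem cells (iPSC), reprogrammed cells, labelled Tbx3 null (2 arrays) or Tbx3 wildtype (2 arrays). Tbx3 encodes a T-box protein that belongs to the circuit of factors keeping stem cells pluripotent. The sources used here are silent on the sorting of the Tbx3-high from the Tbx3-low cells, the allele of the null cells, the strain, and whether the arrays come from separate cultures. The p-values therefore measure only the spread between these samples, which may be technical.

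The mitochondrial ribosome makes the proteins encoded in mitochondrial DNA, all of them parts of the respiratory chain and ATP synthase. Its proteins are encoded in the nucleus, made in the cytosol and imported. Its small subunit decodes the messenger RNA, and its large subunit joins amino acids and passes the new chain through an exit tunnel to the inner membrane. Pluripotent stem cells are known for relying strongly on glycolysis while keeping active mitochondria.

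Signals are log2 of the processed spot signal minus the 75th percentile of the array's spots, and a change is the difference between 2 group means on that scale, given with its standard error (SE) in limma. A gene is said to rise or fall where its Benjamini-Hochberg adjusted p, over all genes tested, is under 0.05. In mESC the 75th percentile was 314 to 458, and in iPSC it was 699.8 to 1007. Between 55.9% and 64.8% of an mESC array's spots were well above background, against 68.0% and 68.6% for Tbx3 wildtype iPSC and 62.4% and 63.0% for Tbx3 null iPSC. Tbx3 itself was higher in the Tbx3-high arrays (7.03 to 7.12) than in the Tbx3-low arrays (5.72 to 5.76). Its signal on arrays with the Tbx3 null label (5.51 and 5.48) exceeded that with the Tbx3 wildtype label (4.996 and 5.35), a change of 0.32 ± 0.10 (adjusted p = 0.028). Whether this probe lies in the deleted part is unknown, and the reason for the higher signal was not tested. The labels are used as given, and the direction of every iPSC change rests on them. All 8 pluripotency markers examined, Pou5f1 and Nanog among them, were well above background on all 12 arrays. Of 8 fibroblast markers, which feeder cells would carry, Postn was well above background on 0 arrays, Col3a1 on 4 and the other 6 on all 12. The summed signal of the 7 other than Postn, in multiples of the 75th percentile, was 3.39 to 28.1 in Tbx3-high, 2.81 to 3.04 in Tbx3-low, 1.36 to 1.38 in Tbx3 null and 2.42 to 2.54 in Tbx3 wildtype cells. Thy1 had the highest group mean of the 7 in both mESC groups (1.81 and 1.04). Its change there, 0.77 ± 0.71, did not pass. Of the 6 tested in the mESC, Col1a1 (1.54) and Pdgfrb (1.83) rose in Tbx3-high cells and 4 did not pass. Of the 7 tested in the iPSC, Acta2 (1.16) rose in null-labelled cells, Col1a1 (-2.32) and Pdgfrb (-2.22) fell, and 4 did not pass. The part of feeder cells in the results was not tested.

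In the iPSC, mitochondrial ribosomal protein genes were mostly higher in the cells labelled Tbx3 null. These are bulk samples, in which a shift in the mix of cells and a change of RNA per cell cannot be told apart. All iPSC arrays lay in row 1 of their slide, Tbx3 wildtype in columns 1 and 2 and Tbx3 null in columns 3 and 4. Slide column and group thus cannot be told apart here either. Of the 76 genes, 41 rose, 1 fell and 34 did not pass, so 55.3% were called, against a background of 39.5% of all genes tested (22.6% higher, 16.9% lower). The median change was 0.29 over the 76 genes and 0.07 over all genes tested, and single changes ran from -0.32 to 0.78. Both null arrays lay above both wildtype arrays for 53 genes and below them for 6, where 41.4% and 30.4% of all genes did so.

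The counts moved with the scaling. Under quantile normalization 24 of the 76 genes rose and 6 fell (background 19.1% and 18.3%), and the median change was 0.13 against 0.03 over all genes. The 24 genes were all among the 41, and Mrpl35 fell under both scalings. With the values of the deposited series table, 23 rose and 4 fell (background 19.9% and 19.8%). Mitochondrial ribosomal protein genes are bright: 66 of the 76 lay in the top signal quartile of the genes tested, where the median change of all genes was 0.18 under the 75th percentile scaling and 0.02 under quantile normalization. In that quartile 30.8% of all genes rose under the 75th percentile scaling and 17.7% under quantile normalization. The result also depended on which arrays were used. The median change of the 76 genes was 0.21 without Tbx3 null array 1 and 0.22 without Tbx3 wildtype array 1. It was 0.37 without Tbx3 null array 2 and 0.34 without Tbx3 wildtype array 2, and over all genes 0.07 to 0.08 in these fits. When the iPSC arrays were fitted alone, 20 of the 76 genes rose and 0 fell, where 2858 of all 16845 genes rose and 2727 fell.

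**Figure D1:**
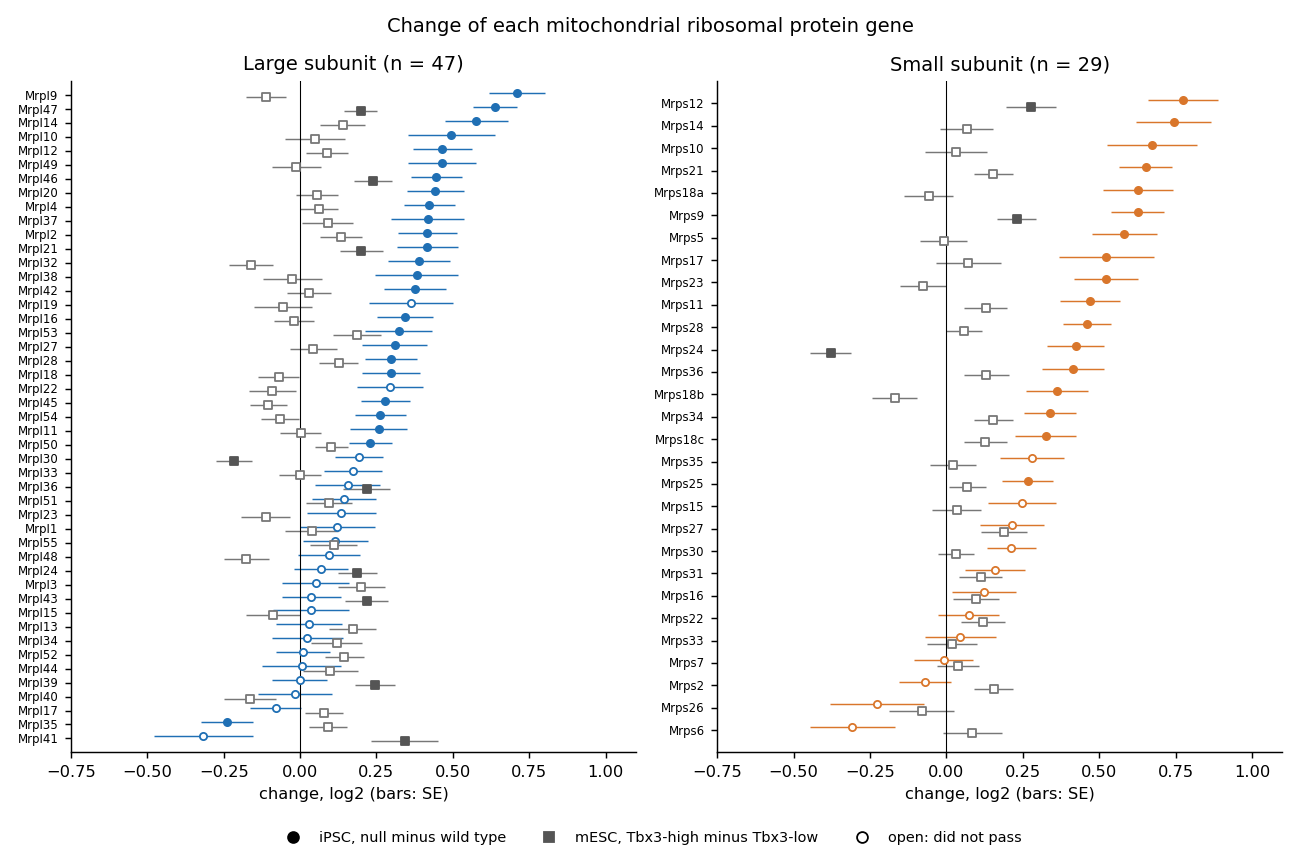
Change of each of the 76 genes on the log2 scale, large subunit left and small subunit right, ordered by the iPSC change. Circles are Tbx3 null minus Tbx3 wildtype iPSC, squares Tbx3-high minus Tbx3-low mESC, bars the SE, and filled symbols passed the test; 41 filled circles lie above 0 and 1 below, against 10 filled squares above 0 and 2 below.

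Among proteins of the small subunit, 17 of 29 rose in the null-labelled iPSC and 0 fell in limma (20 higher and 1 lower at an unadjusted p under 0.05), with a median change of 0.34. The share that rose was 58.6%, against 22.6% of all genes. Under quantile normalization 13 of the 29 rose (44.8% against 19.1% of all genes) and 3 fell. The largest rise of all 76 genes was that of Mrps12, a protein of the decoding centre (probe on chromosome 7 from 29524837 to 29524896, mm9). Its signal was 5.75 and 5.56 on the null arrays and 4.86 and 4.90 on the wildtype arrays. Both null arrays lay above both wildtype arrays, a change of 0.78 ± 0.12 or 1.71-fold (adjusted p = 0.00040).

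Mrps14, a protein of the head of the small subunit, had signals of 4.66 and 4.45 on the null arrays and 3.81 on each wildtype array, a change of 0.74 ± 0.12 (adjusted p = 0.00086). Mrps10, its neighbour in the head, changed by 0.67 ± 0.15 (adjusted p = 0.0044). Mrps9, whose tail reaches towards the transfer RNA in the peptidyl site, was at 3.36 and 3.18 on the null and 2.59 and 2.70 on the wildtype arrays, a change of 0.63 ± 0.09 (adjusted p = 0.00024). Null and wildtype arrays did not overlap for any of these 3 genes. Mrps24, the relative of bacterial S3 at the messenger RNA entry, changed by 0.42 ± 0.09 (adjusted p = 0.0045). Mrps5, also at that entry, changed by 0.58 ± 0.11 (adjusted p = 0.0016). Other head proteins did not pass, among them Mrps7 (-0.01 ± 0.10, adjusted p = 0.95) and Mrps33 (0.05 ± 0.12, adjusted p = 0.79).

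Other small-subunit proteins rose by like amounts. Mrps21, a small protein of the platform side (probe on chromosome 3 from 95666577 to 95666636, mm9), was at 5.18 and 5.08 on the null and 4.54 and 4.42 on the wildtype arrays, a change of 0.65 ± 0.09 (adjusted p = 0.00017). Mrps17 changed by 0.52 ± 0.15 (adjusted p = 0.021), a call that ended without Tbx3 null array 1 or without Tbx3 wildtype array 1. Mrps23, a protein that bacterial ribosomes lack, changed by 0.52 ± 0.11 (adjusted p = 0.0028), and its second probe by 0.79 (adjusted p = 0.00020 in a fit of all probes). The lowest small-subunit changes were those of Mrps6 (-0.31 ± 0.14, adjusted p = 0.10) and Mrps26 (-0.23 ± 0.15, adjusted p = 0.28). These did not pass, and under quantile normalization both fell, by 0.44 and by 0.42. A second probe of Mrps26 changed by 0.006 under the main scaling and did not pass.

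Of the 47 large-subunit genes 24 rose, 1 fell and 22 did not pass in the iPSC, with a median change of 0.26. The share that rose was 51.1%, against 22.6% of all genes. Under quantile normalization 11 of the 47 rose and 3 fell. That share of rises, 23.4%, was near the 19.1% of all genes. Mrpl47, a protein at the exit of the polypeptide tunnel, was at 4.51 and 4.42 on the null and 3.79 and 3.87 on the wildtype arrays. The groups did not overlap, the change was 0.64 ± 0.07 (adjusted p = 5.3e-05), and the other 3 probes of the gene also rose, by 0.51 to 0.62. Mrpl14, which lies on the face towards the small subunit, was at 5.36 and 5.31 on the null and 4.71 and 4.81 on the wildtype arrays, a change of 0.58 ± 0.10 (adjusted p = 0.0013). Both proteins have bacterial relatives. Mrpl12, the stalk protein that recruits translation factors, changed by 0.47 ± 0.10 (adjusted p = 0.0030), and Mrpl10, the base of that stalk, by 0.50 ± 0.14 (adjusted p = 0.018). Mrpl45, which ties the tunnel exit to the inner membrane, changed by 0.28 ± 0.08 (adjusted p = 0.018) but did not pass without Tbx3 null array 2, nor without either wildtype array, nor under quantile normalization. Mrpl44, with a fold like that of ribonuclease III, was at 3.08 and 3.03 on the null and 3.05 on each wildtype array, a change of 0.01 ± 0.13 (adjusted p = 0.98).

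Probes of Mrpl9 disagreed. The chosen probe, in chromosome 3 from 94252112 to 94252171 (mm9), was at 3.03 and 2.82 on the null and 2.19 and 2.23 on the wildtype arrays, a change of 0.71 ± 0.09 (adjusted p = 0.00015). A dimmer probe 2045 bases further along, from 94254157 to 94254216, was at -4.12 and -4.43 on the null and -3.08 and -3.03 on the wildtype arrays. The chosen probe rose and the dimmer one fell, and neither set of arrays overlapped. Mrpl9 was the only gene of the 27 with several probes for which a second probe was called against the chosen one in the iPSC.

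The single fall in the iPSC was that of Mrpl35, with signals of 0.58 and 0.66 on the null and 0.83 and 0.89 on the wildtype arrays, a change of -0.24 ± 0.08 (adjusted p = 0.045). Leaving out any 1 of the 4 iPSC arrays ended this call. Mrpl41 stood lowest of all, at 4.56 and 4.24 on the null and 4.57 and 4.86 on the wildtype arrays, a change of -0.32 ± 0.16 (adjusted p = 0.15). Its groups were separated by 0.01 and of the 12 alternatives its fall passed under quantile normalization (-0.46) and in the series table (-0.45). The second probe of Mrpl41 changed by 0.03 in the iPSC and did not pass.

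**Figure D2:**
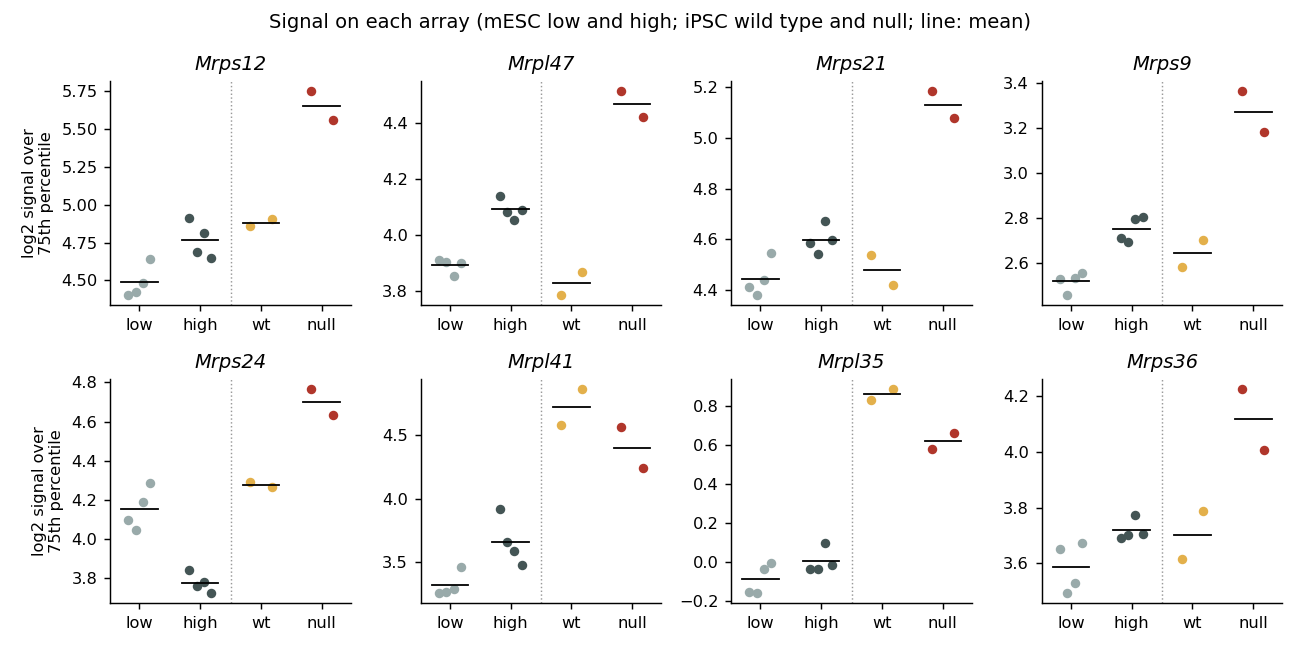
Signal on each array for 8 genes, as log2 over the 75th percentile of the array; each point is 1 array and each line a group mean. mESC groups stand left and iPSC groups right of the dotted line, which separates the slides; Mrps12, Mrpl47, Mrps21 and Mrps9 are higher on the null than on the wildtype iPSC arrays, while Mrps24 is lower in Tbx3-high than in Tbx3-low mESC.

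Some proteins named Mrps do not sit in the small subunit. Mrps30 and Mrps18a are parts of the large subunit, and Mrps36 is now known as a subunit of the alpha-ketoglutarate dehydrogenase complex. Mrps18a was at 3.73 and 3.46 on the null and 2.95 and 2.99 on the wildtype arrays, a change of 0.63 ± 0.12 (adjusted p = 0.0016). Its paralogs Mrps18b and Mrps18c, variants of the same bacterial protein, changed by 0.36 ± 0.10 (adjusted p = 0.016) and 0.32 ± 0.10 (adjusted p = 0.024). Mrps30 changed by 0.21 ± 0.08 (adjusted p = 0.056). Mrps36 changed by 0.41 ± 0.10 (adjusted p = 0.0080), whereas its second probe changed by 0.18 and did not pass.

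In the iPSC the median change was larger for the small than for the large subunit. The median of the large-subunit genes minus that of the small-subunit genes, each gene taken relative to its mean over the slide, was -0.04 and -0.06 on the null arrays and 0.08 and 0.04 on the wildtype arrays. Under quantile normalization these values were -0.07 and -0.08 against 0.08 and 0.03. Null and wildtype arrays were thus separated under both scalings. The change of the large-subunit median minus that of the small-subunit median was -0.08, and it stood at -0.07 with Mrps30 and Mrps18a counted as large and Mrps36 left out. Without Tbx3 wildtype array 1 it was -0.01, so its size rests on that array. In the mESC the same difference was 0.01, with Tbx3-high arrays between -0.02 and 0.01 and Tbx3-low arrays between -0.003 and 0.007, which overlapped. Such a median has no test here. By name, the 42 genes counted as having a bacterial homologue had a median iPSC change of 0.30 (23 rose, 1 fell) and the 34 others 0.26 (18 rose, 0 fell). Mrps24, Mrps28 and Mrpl47, whose bacterial relatives carry other numbers, stand among the others. So do Mrps18a and Mrps18b, since of these paralogs only Mrps18c was counted with the 42.

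**Figure D3:**
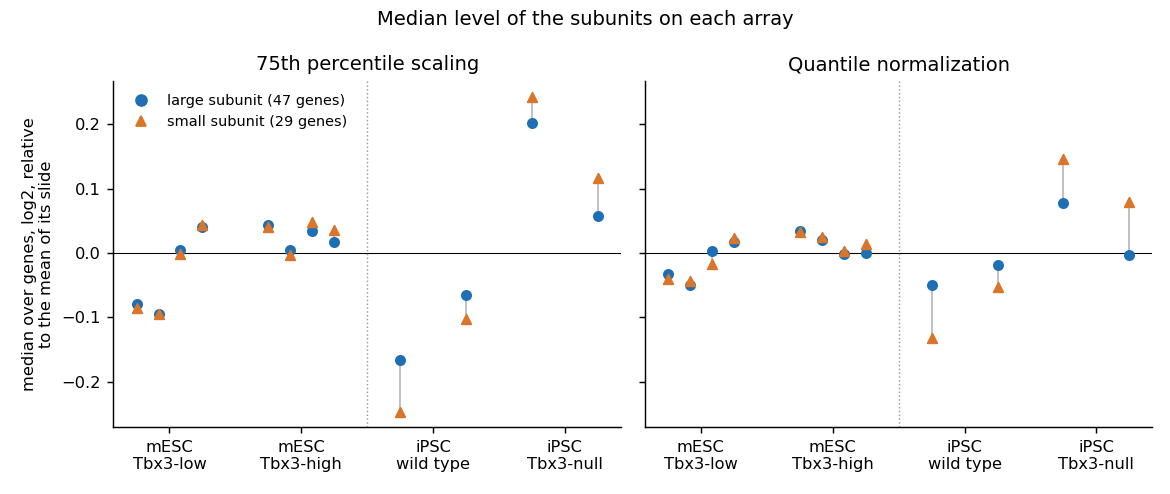
Median over the 47 large-subunit genes (circles) and the 29 small-subunit genes (triangles) on each array, in log2 relative to each gene's mean over the arrays of its slide, under 2 scalings. On the wildtype iPSC arrays the triangle lies below the circle and on the null arrays above it; in mESC the symbols lie close together.

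In the mESC few mitochondrial ribosomal protein genes differed between Tbx3-high and Tbx3-low cells. Of the 76 genes 10 rose, 2 fell and 64 did not pass, so 15.8% were called against a background of 35.5% of all genes tested (19.9% higher, 15.6% lower). The median change was 0.07 against 0.04 over all genes, and changes ran from -0.38 to 0.34. Tbx3-high and Tbx3-low arrays did not overlap for 18 genes, 15 higher and 3 lower in Tbx3-high cells, where 36.3% of all genes did not overlap. Under quantile normalization 11 rose and 6 fell (background 18.5% and 18.4%), and with the values of the series table, 7 rose and 5 fell (background 16.2% and 17.6%). The arrays lay in 2 rows of a slide. Within row 1 alone 4 genes rose and 0 fell (median 0.11), where 1940 of all 15190 genes rose and 1679 fell. Within row 2 alone 0 rose and 2 fell (median 0.02), where 1773 of all genes rose and 1640 fell. With the row as a block 13 rose and 2 fell, beside 3478 and 2661 of all genes. Tbx3-low arrays lay in columns 1 and 2 and Tbx3-high arrays in columns 3 and 4, so column and group cannot be told apart. Without Tbx3-low array 2 there were 6 calls, where 2508 of all genes rose and 2213 fell. Without Tbx3-low array 1 there were 4 rises and 4 falls, where 2511 of all genes rose and 2242 fell.

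The largest mESC change was the fall of Mrps24, the S3 relative. Its signals were 3.84, 3.76, 3.78 and 3.72 on the Tbx3-high arrays and 4.10, 4.04, 4.19 and 4.29 on the Tbx3-low arrays. All Tbx3-high arrays lay below all Tbx3-low arrays, a change of -0.38 ± 0.07 (adjusted p = 0.0011), and the call held with each array left out in turn. Mrpl30, a large-subunit protein with a bacterial relative, was at 4.86, 4.86, 4.87 and 4.78 on the Tbx3-high and 5.03, 5.03, 5.11 and 5.07 on the Tbx3-low arrays. It fell by 0.22 ± 0.06 on the log2 scale (adjusted p = 0.014) with no overlap between the groups, but its second probe changed by -0.08 and did not pass.

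The rises in Tbx3-high mESC were small. Mrpl41 was at 3.92, 3.66, 3.59 and 3.48 on the Tbx3-high and 3.26, 3.27, 3.29 and 3.46 on the Tbx3-low arrays, a change of 0.34 ± 0.11 (adjusted p = 0.032). Its groups were separated by the gap between 3.46 and 3.48 alone, and leaving out any of 5 arrays (Tbx3-low 1, 2 or 3, or Tbx3-high 1 or 2) ended the call. The second probe of Mrpl41 changed by 0.25 and did not pass, and the call also ended with the mean of its probes. Mrps12 was at 4.91, 4.69, 4.81 and 4.65 on the Tbx3-high and 4.40, 4.42, 4.48 and 4.64 on the Tbx3-low arrays, a change of 0.28 ± 0.08 (adjusted p = 0.020) that did not pass without Tbx3-low array 1, Tbx3-low array 2 or Tbx3-high array 1. Mrpl39, whose fold is related to threonyl-tRNA synthetase, changed by 0.25 ± 0.07 (adjusted p = 0.013), and its second probe by -0.03 (did not pass).

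Mrpl46, a large-subunit protein that bacteria lack, was at 2.45, 2.42, 2.55 and 2.52 on the Tbx3-high and 2.21, 2.19, 2.25 and 2.35 on the Tbx3-low arrays. It rose by 0.24 ± 0.06 (adjusted p = 0.010), with no overlap between the groups. Mrps9 rose by 0.23 ± 0.06 (adjusted p = 0.015) and Mrpl47 by 0.20 ± 0.05 (adjusted p = 0.014). The other rises were those of Mrpl36 (0.22), Mrpl43 (0.22), Mrpl21 (0.20) and Mrpl24 (0.19), each ended by leaving out 1 of several arrays. Of the 12 mESC calls, those of Mrpl30, Mrpl39, Mrpl46, Mrpl47, Mrps24 and Mrps9 held with each of the 8 arrays left out in turn.

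Set side by side, 6 genes were called in both comparisons. Mrpl21, Mrpl46, Mrpl47, Mrps12 and Mrps9 rose in Tbx3-high mESC and in null-labelled iPSC, and Mrps24 fell in the former and rose in the latter. Another 6 were called in the mESC alone, 36 in the iPSC alone and 28 in neither.

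The test of the difference between the comparisons set Tbx3-high minus Tbx3-low against Tbx3 wildtype minus Tbx3 null. Both then run from the more to the less Tbx3 label. That test also sets columns 3 and 4 against columns 1 and 2 on both slides, so column and this difference cannot be told apart. The difference was positive for 34 of the 76 genes and negative for 0 in limma (40 and 0 at an unadjusted p under 0.05). That is 44.7% called against a background of 34.9% (20.6% positive, 14.3% negative). In the top signal quartile, which held 67 of the 76 genes, 27.2% of all genes differed positively. Mrps12 differed by 1.05 ± 0.14 (adjusted p = 0.00031), Mrps9 by 0.86 ± 0.11 (adjusted p = 0.00018) and Mrpl47 by 0.84 ± 0.09 (adjusted p = 6.0e-05). In each of these 3 the group labelled with less Tbx3 was lower in the mESC and higher in the iPSC. For Mrps24 the difference was 0.04 ± 0.11 (adjusted p = 0.80): it was lower in the group labelled with more Tbx3 in both cell types. Under quantile normalization 17 genes differed positively and 3 negatively (background 15.7% and 15.8%), and from the series table's values 19 did positively and 2 negatively (background 15.8% and 17.3%). The median difference of the 76 genes was 0.29 with all arrays, 0.21 without Tbx3 null array 1 and 0.25 without Tbx3 wildtype array 1. It was 0.38 without Tbx3 null array 2 and 0.35 without Tbx3 wildtype array 2, and over all genes 0.10 to 0.12 in these 4 fits.

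The genes around the mitochondrial ribosome were taken from lists by function, whose called shares stand against 35.5% of all genes in the mESC and 39.5% in the iPSC. Of 7 further mitochondrial ribosomal proteins under other symbols, 1 rose in each comparison: Gadd45gip1 in the mESC (0.21 ± 0.06, adjusted p = 0.019) and Mrpl57 in the iPSC (0.40 ± 0.08, adjusted p = 0.0026). Of 22 assembly factors and ribosomal RNA maturation enzymes, 7 rose and 0 fell in the iPSC (12 higher and 0 lower unadjusted), with a median of 0.28. The share called, 31.8%, was below the 39.5% of all genes called in either direction. All of these calls were rises, and 22.6% of all genes rose. Under quantile normalization 6 rose (27.3% against 19.1% of all genes) and 1 fell. The rises under the main scaling include the ribosome-binding factor Rbfa (0.74 ± 0.09, adjusted p = 8.6e-05) and the ribosomal RNA methyltransferase Mrm3 (0.70 ± 0.10, adjusted p = 0.00035). In the mESC 2 of 21 rose and 2 fell (19.05% called). Nsun4, another ribosomal RNA methyltransferase, rose by 0.70 ± 0.09 (adjusted p = 6.3e-05) and Mrm2 by 0.31 ± 0.09 (adjusted p = 0.016), while Mrm1 changed by -0.44 ± 0.08 (adjusted p = 0.00088) and the RNA-binding protein Lrpprc by -0.38 ± 0.06 (adjusted p = 0.00074).

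Of 15 translation factors 3 rose and 0 fell in the mESC (Mtrf1 0.30, Pdf 0.25 and Tsfm 0.18), where 19.9% of all genes rose. In the iPSC 5 rose and 0 fell, led by the membrane insertase Oxa1l (0.39 ± 0.09, adjusted p = 0.0067) and the elongation factor Gfm1 (0.32 ± 0.11, adjusted p = 0.045). That is 33.3% called, all of them rises, where 22.6% of all genes rose. Under quantile normalization 2 of the 15 rose in the iPSC (13.3% against 19.1% of all genes). Of the aminoacyl-tRNA synthetases and amidotransferase subunits 7 of 20 rose and 0 fell in the mESC, the largest being Gatc (0.59 ± 0.08, adjusted p = 0.00016) and Aars2 (0.47 ± 0.06, adjusted p = 0.00010). In the iPSC 5 of 19 rose and 3 fell (42.1% called). The amidotransferase subunits moved apart there: Qrsl1 changed by 0.80 ± 0.09 and Gatc by 0.58 ± 0.11, whereas Gatb changed by -0.67 ± 0.14 and the leucyl-tRNA synthetase Lars2 by -0.91 ± 0.12.

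Messenger RNAs encoded in mitochondrial DNA are the templates of the mitochondrial ribosome. Of 13, 0 rose in either comparison in limma (also 0 at an unadjusted p under 0.05), 2 fell in the mESC (ND5 by 0.47 ± 0.16 and ATP6 by 0.28 ± 0.10) and 1 in the iPSC (ND4, by 0.37 ± 0.12). These falls are 15.4% and 7.69% of the list, against 15.6% and 16.9% of all genes. Under quantile normalization 3 fell in the iPSC, and with the series table's values 4. Their medians were -0.09 and -0.15, and the files place some of these probes on chromosome 1, where nuclear copies of mitochondrial DNA would share their sequence. Of 12 genes for mitochondrial transcription and DNA maintenance, 3 rose and 1 fell in the iPSC (33.3% called), among them Top1mt (0.46 ± 0.07) and the helicase Twnk (0.32 ± 0.10) and, falling, the nuclease Mgme1 (-0.88 ± 0.12). In the mESC 2 rose (Mterf2 0.55 ± 0.06 and the polymerase Polg 0.41 ± 0.08) and 1 fell (Top1mt, -0.18 ± 0.06), 25% of the list called.

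Of 10 regulators of nuclear genes for mitochondria, 3 rose and 2 fell in the iPSC. Mycn changed by 1.496 ± 0.17 (adjusted p = 5.3e-05) and Nrf1, nuclear respiratory factor 1, by 0.85 ± 0.10 (adjusted p = 9.6e-05), while Myc changed by -0.72 ± 0.12 (adjusted p = 0.00083) and Pprc1 by -0.36 ± 0.10 (adjusted p = 0.017). In the mESC Mycn was the single call, a change of -0.998 ± 0.11 (adjusted p = 4.0e-05).

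Of 87 nuclear genes of the respiratory chain and ATP synthase 35 rose and 3 fell in the iPSC (median 0.26), led by the complex I subunits Ndufv3 (1.03 ± 0.08) and Ndufa3 (0.73 ± 0.09). The falls were those of Cox6a2 (-1.67 ± 0.19), Cox7a1 (-1.33 ± 0.10) and Cox8c (-0.60 ± 0.20). The share that rose was 40.2% against 22.6% of all genes. Under quantile normalization 9 rose and 4 fell, with a median of 0.07, and the share that rose, 10.3%, was below the 19.1% of all genes. In the mESC 21 of 85 rose and 1 fell (median 0.12), 24.7% rising against 19.9% of all genes, the largest changes being Cox7a1 (0.59 ± 0.07) and Ndufa1 (-0.30 ± 0.06). Cytosolic ribosomal proteins serve the other translation system. Of 85 genes 4 rose and 2 fell in the iPSC (7.06% called, median 0.13), and 2 rose and 0 fell in the mESC (median -0.00014). Under quantile normalization 0 of the 85 rose and 2 fell in the iPSC. The 2 falls under the main scaling were Rpl39l (-1.19 ± 0.10) and Rpl10l (-1.06 ± 0.09), which are paralogs best known from the testis. The difference between lists was not tested.

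**Figure D4:**
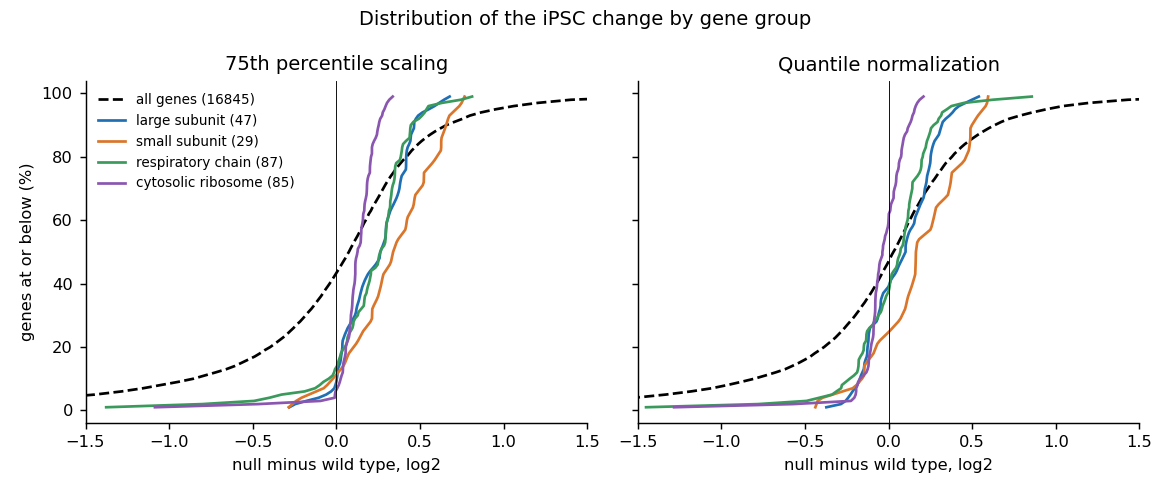
Cumulative distribution of the iPSC change (Tbx3 null minus Tbx3 wildtype, log2) by gene group, with the percent of genes at or below each change, under 2 scalings. The small-subunit curve lies right of the large-subunit curve over most of its course, and quantile normalization moves the curves of all 4 gene groups to the left.

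Promoters were compared as a property that the choice of genes did not use. RefSeq windows (GRCm38.p6) from 250 bases before to 50 after the start were at hand for 67 of the 76 genes, 73 windows in all. Motifs were searched by exact letters on both strands. The site of nuclear respiratory factor 1 (GCGCA, any base, GCGC) was in 16.4% of the members' windows and 4.60% of all 32851 windows. ACTTCCG, an ETS-type site as bound by GABPA, was in 23.3% against 6.42%, and AAGATGGCG, the site of YY1, in 10.96% against 1.40%. CACGTG, the E-box, was in 9.59% against 7.15%. Its 7 matching windows include several overlapping ones of Mrpl2, and by gene 5 of 67 held it. No motif contains another, although matches may overlap. The windows also differ in composition: the median GC content was 58.3% against 52.7%, and the median number of CpG 21 against 7. Among genes that rose in the iPSC and among the others matches were found in both: 7 of 36 risen genes and 5 of 31 others held the nuclear respiratory factor 1 letters, and 8 of 36 and 9 of 31 the ETS letters.

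Many of these genes start back to back with a neighbour. In RefSeq, 25 of the 67 genes (37.3%) had a gene on the opposite strand starting within 1000 bases before their own start, against 12.2% of all 27025 genes. For 24 of them the partner was tested. In the iPSC 12 of the 24 partners rose and 0 fell (background 22.6% higher), and in 9 pairs both genes rose; Mrpl46 and Mrps11 are partners of each other and count from both sides. In the mESC 3 partners rose and in 0 pairs were both called. Mrpl46 and Mrps11 start 42 bases apart and rose by 0.45 ± 0.08 and 0.47 ± 0.10 in the iPSC. Mrps12 starts 147 bases from Sars2, the mitochondrial seryl-tRNA synthetase, which rose by 0.54 ± 0.13. Mrpl2 (0.42 ± 0.10) starts 141 bases from the kinesin light chain gene Klc4 (0.40), and Mrpl18 (0.30 ± 0.09) 238 bases from Tcp1, a subunit of the cytosolic chaperonin (0.30). For the other 7 of the 16 members that rose, the partner did not pass: Ighmbp2 beside Mrpl21 (0.10), Eme1 beside Mrpl27 (0.01), Cyb5rl beside Mrpl37 (-0.36), Fau beside Mrpl49 (0.08), Ppp1r10 beside Mrps18b (-0.15), Helq beside Mrps18c (0.18) and Zfp661 beside Mrps5 (-0.04).

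The stretches between the starts of 4 such pairs in which both genes rose are printed to show what the genes of a pair share, followed by the 250 bases before the start of Mrps21, which rose and holds a nuclear respiratory factor 1 match, and of Mrps24, which fell in Tbx3-high mESC and rose in null-labelled iPSC. Each is read 5′ to 3′ on the strand of the first named gene and ends at the base before its start. Capitals mark a motif match. Where there are none, none of the 4 motifs is in the stretch. The windows searched above are 300 bases long and include 50 bases after the start. Those of Mrps24 and Mrps11 hold a YY1 match, and that of Mrpl18 a further ETS-type match, not contained in the printed stretches.
Mrpl46 and Mrps11, chr7:78783090-78783130 (minus strand): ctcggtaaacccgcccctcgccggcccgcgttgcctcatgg
Mrps12 and Sars2, chr7:28741822-28741967 (minus strand): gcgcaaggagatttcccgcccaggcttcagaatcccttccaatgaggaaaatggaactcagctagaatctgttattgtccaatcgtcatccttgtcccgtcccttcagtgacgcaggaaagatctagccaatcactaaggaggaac
Mrpl2 and Klc4, chr17:46646081-46646220 (plus strand): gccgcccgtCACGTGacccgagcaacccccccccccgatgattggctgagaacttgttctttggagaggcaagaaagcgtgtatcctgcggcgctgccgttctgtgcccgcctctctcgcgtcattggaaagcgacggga
Mrpl18 and Tcp1, chr17:12916092-12916328 (minus strand): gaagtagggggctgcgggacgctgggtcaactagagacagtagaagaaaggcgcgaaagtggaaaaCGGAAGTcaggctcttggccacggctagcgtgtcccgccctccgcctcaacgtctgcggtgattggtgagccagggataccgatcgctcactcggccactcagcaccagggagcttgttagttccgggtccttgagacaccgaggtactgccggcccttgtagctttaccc
Mrps21, chr3:95871515-95871764 (minus strand): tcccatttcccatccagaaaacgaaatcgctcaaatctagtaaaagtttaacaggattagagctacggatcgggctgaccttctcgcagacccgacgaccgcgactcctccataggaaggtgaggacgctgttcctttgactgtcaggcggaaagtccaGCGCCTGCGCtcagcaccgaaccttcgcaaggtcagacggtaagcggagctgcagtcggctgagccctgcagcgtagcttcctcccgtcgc
Mrps24, chr11:5707702-5707951 (minus strand): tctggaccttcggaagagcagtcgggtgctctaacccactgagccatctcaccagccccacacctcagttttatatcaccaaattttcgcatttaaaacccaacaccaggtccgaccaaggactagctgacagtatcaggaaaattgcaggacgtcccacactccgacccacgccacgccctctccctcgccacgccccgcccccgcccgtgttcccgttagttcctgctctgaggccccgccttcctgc

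The stretch between Mrpl2 and Klc4 holds an E-box whose first base lies 131 bases before the start of Mrpl2, that between Mrpl18 and Tcp1 an ETS-type match 171 bases before the start of Mrpl18, and the Mrps21 window a nuclear respiratory factor 1 match 91 bases before its start. The 41 bases between Mrpl46 and Mrps11 have 73.2% GC and the 146 bases between Mrps12 and Sars2 have 49.3%. A match is a description of the letters and shows no binding.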

How the data were processed

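Total RNA was labelled with Cy3 (Low Input Quick Amp Kit, per the labels' protocols), 1 array per sample. The deposited spot intensity values, background-subtracted but not scaled between arrays, come from Agilent Feature Extraction 10.7.3.1, per the file headers. The series table, deposited as log2 values, has unknown scaling and background treatment; it follows the log2 mean spot intensity (r at least 0.9988, column medians 6.58 to 6.61).

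log2 processed signals were centred on each array's 75th percentile over non-control spots, outlier spots were set to missing, and spots of a probe were averaged. Genes were named from the files and RefSeq (27656 probes by accession, 3401 by symbol, 307 by synonym). All 12 arrays were fitted with 4 group means in limma 3.58.1 (R 4.3.3), with Benjamini-Hochberg adjustment over 15190 (mESC), 16845 (iPSC) and 17000 (difference) genes; the fit was tested on simulated data, where the share of false calls came out above the nominal level in both comparisons and small changes were recovered less often in the iPSC than in the mESC. Each mESC group had 4 arrays and each iPSC group 2, which limits precision. mESC and iPSC lay on separate slides and were not compared directly. Members and lists were chosen with earlier results of these data known. Named are the 12 largest rises and 12 largest falls that passed, the 8 smallest adjusted p of the difference, members with a special place, and the 2 largest rises and falls of other lists; further names were chosen after their values were seen. Rps19bp1, Rps23rg1 and Rpl37rt were left out of the cytosolic ribosomal proteins. Alternatives were quantile normalization, normexp background, the series table, no dim filter, mean of probes, the compared groups alone, array weights, replicate block, slide row as block or alone, and each array left out. Python 3.11.15 (pandas, matplotlib) drew the figures.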

Additional observations from a re-analysis of the deposited data

Results flagged for a closer look

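The test of the difference, with the iPSC change taken as Tbx3 wildtype minus Tbx3 null, passed for 34 of the 76 genes. That is 44.7%, against 34.9% of all genes. Genes that rose both in Tbx3-high mESC and in null-labelled iPSC thus count as differing. Under quantile normalization 17 genes differed positively and 3 negatively (background 15.7% and 15.8%). In the main fit the 8 with the smallest adjusted p were Mrpl47 (0.84), Mrps9 (0.86), Mrps21 (0.81), Mrps12 (1.05), Mrpl46 (0.68), Mrpl14 (0.72), Mrps28 (0.52) and Mrpl9 (0.60, with the disagreeing probe described above), each a difference of log2 changes that was positive.

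Single arrays stood apart from the other 3 of their mESC group for 7 of the 58 combinations of a named gene and a group, where chance gives about 1 in 20. Mrpl41 was 3.46 on Tbx3-low array 4 against 3.26 to 3.29 on the others, and Mrpl24 was 5.13 on Tbx3-low array 1 against 5.22 to 5.23. Mrpl9 was 2.28 on Tbx3-low array 3 against 2.40 to 2.41. On Tbx3-high array 4 Mrpl30 was 4.78 against 4.86 to 4.87 and Mrpl12 was 5.11 against 5.17 on the others. On Tbx3-high array 3 Mrps36 was 3.77 against 3.69 to 3.71 and Mrpl35 was 0.10 against -0.04 to -0.01.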

How the results depend on the processing

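In the iPSC, 16 of the 42 calls held under all 12 alternatives, Mrps12, Mrpl47, Mrps21 and Mrps24 among them, while 0 of the 12 mESC calls and 12 of the 34 of the difference held under all 19. The iPSC count was 27 in the series table and 20 with the compared groups alone, and 20 to 40 with an array left out. The mESC count was 7 with normexp background, 7 without the dim filter, 4 in slide row 1 alone, 2 in row 2 alone and 6 to 11 with an array left out. Over all genes the rises moved too. They numbered 2858 in the iPSC with the compared groups alone against 3814 in the main fit. In the mESC they numbered 1773 in row 2 alone against 3023. The count of the difference was 20 under quantile normalization, 21 in the series table and 20 to 37 with an array left out. The median iPSC change was 0.13 under quantile normalization and 0.11 in the series table. The large minus small median change in the iPSC was -0.11 with normexp background and -0.11 in the series table, and -0.146 to -0.0110 with an array left out; in the mESC it was -0.00913 by known place, 0.0243 with normexp background, 0.0267 in the series table, -0.00427 with the mean of probes, and -0.0232 to 0.0159 with an array left out, so its sign is not settled. With the mean of its probes, Mrpl9 changed by -0.26 in the iPSC and -0.31 in the difference, since the dimmer probe fell. For the other moves the cause was not tested. Same-numbered mESC arrays deviated together with r of 0.11, 0.23, 0.16 and 0.09, and iPSC arrays with r of 0.04, and not every array correlated best with its own number, so the numbers were not taken as pairs, although same-numbered mESC arrays lay in the same slide row; with the replicate block 8 mESC, 30 iPSC and 25 difference calls remained in number. The members were chosen by probes well above background on all 12 arrays, so their signals cannot show whether dim signal is a limit. Each iPSC group had 2 arrays, which limits precision.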
